A study of Homo sapiens with 15 samples.

Results

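A549 cells exposed to the lowest concentration of dimethylamine (low dose, LD, 14.9 ppm) were compared with cells that received neither the vapour nor the exposure flow (non-exposed control, NEC). The comparison took the 3 LD and 3 NEC samples out of 15 in the series, and covered 282 of the 296 genes on a customised quantitative RT-PCR panel, namely those with a product in at least 2 samples of both groups. A549 is a line from a human lung adenocarcinoma, and all samples came from this single line. The cells were cultured on membranes for the air-liquid interface, and serum was removed before the exposures. The LD cultures were put through 3 rounds in 72 h, each with 1 h of vapour at 3 ml/min per cm² and 23 h of recovery, and the NEC cultures through none. LD against NEC therefore measured the joint effect of air flow and dimethylamine, and the clean air control (CA, the same flow at 0 ppm) was set beside it to show how the flow alone measured. An exposure plate is given for each sample. The LD samples shared plate 1, while NEC and CA were spread over plates 1, 5 and 6 with a sample of each per plate, so a difference of plate 1 from the other plates enters the comparison through all LD samples but only a single NEC sample, and can be estimated only from the controls.

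Dimethylamine is a small, volatile and basic amine that irritates the airways. Cells of the alveolar lining carry keratins and junction proteins of an epithelium, rest on a basement membrane of laminins, and repair a damaged surface with the help of matrix-cutting and matrix-linking enzymes. A549 cells also make plasma proteins usually associated with liver, among them fibrinogen, complement factors and protease inhibitors, whose production is known to depend on hormones and cytokines.

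Levels are given as the negative ΔCT, that is, the mean threshold cycle (CT) of the normalisation genes GPN1 and TMEM184C minus the CT of the gene, on a log2 scale. A rise of 1 unit stands for about a doubling of RNA. GPN1, a GTPase, had a CT of 25.39 ± 0.16 in LD and 25.37 ± 0.35 in NEC (SD, n = 3), and TMEM184C, a membrane protein, had a CT of 24.40 ± 0.03 in LD and 24.43 ± 0.18 in NEC (SD, n = 3), so neither moved between the groups by more than the spread between replicates. Between 283 and 287 wells gave a product in each of the 6 samples, with CTs from 16.5 to 36.1. Of the markers listed for other cell types, none of 10 for fibroblasts and none of 8 for endothelium was among the measured genes, and of 13 for lung epithelium only CDH1 and KRT18 were. The epithelial cadherin CDH1 lay at 1.34, 1.20 and 1.06 in LD and at 1.44, 1.41 and 1.33 in NEC, and keratin KRT18 at 5.42, 5.31 and 5.44 in LD and at 5.23, 5.47 and 5.36 in NEC. Both were present in all samples, and neither passed the test (adjusted p = 0.225 and 0.82, limma).

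In LD, 95 of 282 genes differed from NEC at an adjusted p under 0.05 (33.7%, limma). Of these, 41 were higher (14.5%) and 54 lower (19.1%), and 11 rises (3.9%) and 17 falls (6.03%) were larger than 2-fold. The median difference over all tested genes was -0.05. The panel had been chosen by the study largely for genes that changed at the highest dose in the same RNA, so these shares describe the panel and not the transcriptome. With plate as a term in the model, 44 genes were higher (15.6%) and 33 lower (11.7%). All 95 genes kept their sign, and 29 of the 41 rises and 26 of the 54 falls remained called. Against the NEC sample of plate 1 alone, a single sample that is assumed to vary like the other groups, 41 genes were higher (14.5%) and 24 lower (8.51%), of which 25 and 20 belonged to the genes called over all plates. Among the 54 genes that fell, the NEC sample of plate 1 was the lowest of the 3 NEC samples in 36, and LD replicate 3 was the lowest LD sample in 40, against 170 and 139 of the 280 tested genes without a missing value. The samples of LD and NEC did not overlap in 132 genes (46.8%). Without LD replicate 3, 60 genes were called, 32 higher and 28 lower.

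**Figure D1:**
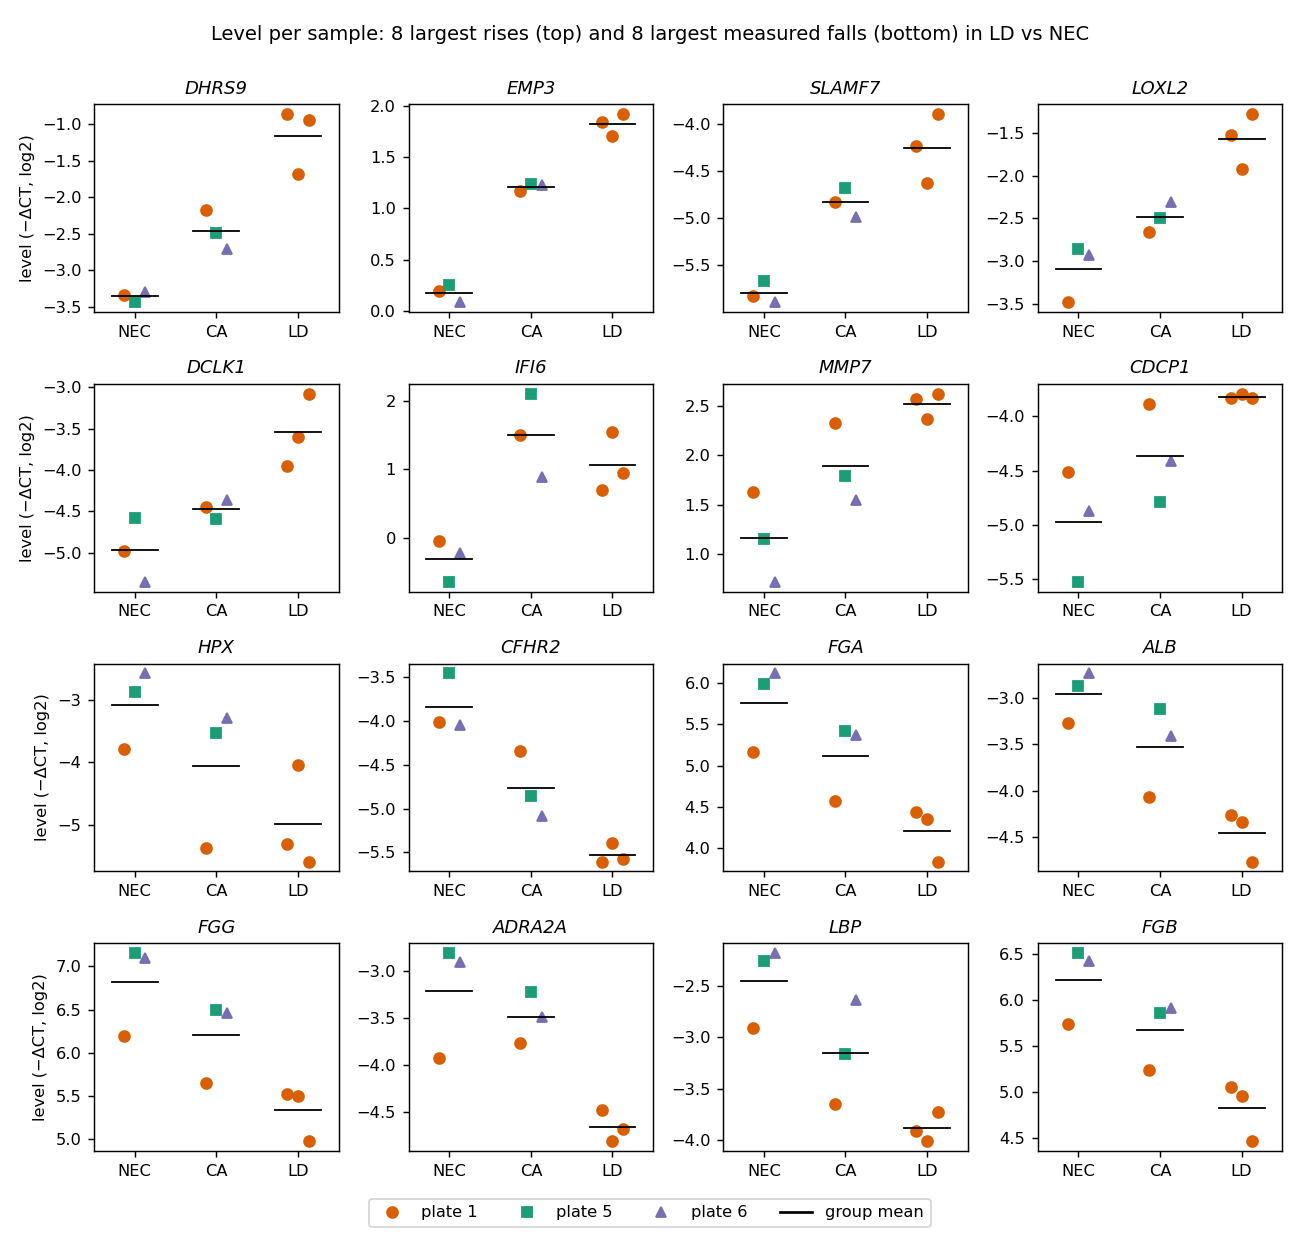
Levels (negative ΔCT, log2 scale) in the single samples of NEC, CA and LD, for the 8 genes that rose most in LD (upper rows) and the 8 that fell most among those with all wells within the measured range (lower rows). Colours and shapes mark the exposure plate and lines the group means. In the fibrinogen genes the NEC and CA samples of plate 1 lie below those of plates 5 and 6, whereas EMP3 is separated between the 3 groups without overlap.

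The largest rise was in DHRS9, a short-chain dehydrogenase that oxidises retinol. It lay at -3.34, -3.44 and -3.29 in NEC (plates 1, 5 and 6) and at -0.86, -1.69 and -0.95 in LD, without overlap. The difference was 2.19 ± 0.21 (SE, 4.56-fold, adjusted p = 1.86e-05, limma), and it was 2.04 with plate as a term (adjusted p = 7.33e-04) and 2.17 within plate 1. EMP3, a membrane protein of the epithelial membrane protein family, had the smallest p-value of the panel. Its levels were 0.20, 0.26 and 0.08 in NEC and 1.84, 1.70 and 1.92 in LD, a rise of 1.64 ± 0.09 (3.12-fold, adjusted p = 5.64e-08, limma). The rise of EMP3 was 1.65 with plate as a term. EMP1 of the same family rose as well, from -3.77, -3.13 and -3.45 in NEC to -2.56, -2.73 and -2.66 in LD (0.80 ± 0.23, adjusted p = 0.0181, limma). Leaving out LD replicate 1 or 3 or NEC replicate 1 or 3 took the adjusted p of EMP1 to between 0.0505 and 0.0725, while its rise was 1.21 with plate as a term (adjusted p = 0.00239). Within the group of S100 proteins, keratins and epithelial membrane proteins, 3 of 8 tested genes rose and 0 fell, the remaining rise being that of the calcium-binding S100A4 (0.68 ± 0.17). The median of this group was 0.58. Counts in this and the later groups are read against 14.5% higher and 19.1% lower over all tested genes.

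Genes of the extracellular matrix and basement membrane formed the group with the highest share of rises among those with more than 2 tested genes. Of 6 tested genes 4 rose and 0 fell (median 0.84). The collagen cross-linking enzyme LOXL2 lay at -3.49, -2.85 and -2.93 in NEC and at -1.52, -1.92 and -1.27 in LD, which gave 1.52 ± 0.20 (2.86-fold, adjusted p = 4.41e-04, limma). The NEC sample of plate 1 was the lowest of its group here, and the rise within plate 1 was 1.91. Matrilysin, MMP7, a secreted protease that cleaves matrix and cell surface proteins, lay at 1.63, 1.15 and 0.72 in NEC and at 2.56, 2.36 and 2.62 in LD. The samples did not overlap, and the difference of 1.35 ± 0.23 (adjusted p = 8.83e-04, limma) was 0.90 with plate as a term (adjusted p = 0.00239), since NEC on plate 1 was the highest NEC sample. LAMA3, a laminin chain of the epithelial basement membrane, lay at -2.54, -2.07 and -1.91 in NEC and at -1.58, -1.68 and -1.07 in LD (0.73 ± 0.19, adjusted p = 0.0099, limma). All 4 rises stayed called with plate as a term. Fibronectin, FN1, an adhesive matrix protein, was not called over all plates (-0.47, adjusted p = 0.0692) but was lower with plate as a term (-0.87, adjusted p = 0.00162, limma), its NEC sample of plate 1 lying at 4.93 against 4.30 and 4.26 on plates 5 and 6.

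Further large rises were in genes of various roles. SLAMF7, a receptor otherwise known from natural killer and plasma cells, rose from -5.82, -5.67 and -5.89 to -4.24, -4.63 and -3.89 (1.54 ± 0.28, 2.91-fold, adjusted p = 0.00116, limma). CD79A, a signalling chain of the B cell receptor and the only leukocyte marker of 10 listed that was measured, rose from -0.20, 0.20 and 0.07 to 0.80, 1.06 and 1.04 (0.95 ± 0.15, adjusted p = 7.36e-04, limma). Both genes had a product in all NEC samples, and a part of other cells in these values was not tested. DCLK1, a kinase that binds microtubules, rose by 1.42 ± 0.24, from -4.98, -4.58 and -5.35 to -3.96, -3.61 and -3.08. SPINK1, an inhibitor of trypsin, lay at -2.91, -2.31 and -2.48 in NEC and, more narrowly, at -1.53, -1.57 and -1.38 in LD, a rise of 1.07 ± 0.15 (adjusted p = 5.47e-04, limma). Its rise was 1.28 with plate as a term, and a further protease inhibitor, SERPINE2, rose by 0.68 ± 0.13. AKAP2, which anchors protein kinase A, and PALM2, a paralemmin, rose by 1.08 ± 0.25 and 1.01 ± 0.27. Both genes are neighbours known to give joined transcripts, so their assays may not be independent. ANXA3, an annexin, rose by 0.86 ± 0.19. The membrane glycoprotein CDCP1 (1.15 ± 0.29), the small GTPase ARL14 (0.92 ± 0.27) and PALM2 lost their calls with plate as a term, with adjusted p-values of 0.0587, 0.123 and 0.0998. ARL14 was also not called without LD replicate 2 (0.82, adjusted p = 0.0663), NEC replicate 2 (0.85, adjusted p = 0.0588) or NEC replicate 3 (0.70, adjusted p = 0.084), and PALM2 not without LD replicate 3 (0.91, adjusted p = 0.0533).

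IFI6, an interferon-induced mitochondrial protein, had its highest mean in CA. It lay at -0.05, -0.65 and -0.23 in NEC, at 1.50, 2.11 and 0.89 in CA and at 0.71, 1.54 and 0.95 in LD, so that CA and LD overlapped. LD exceeded NEC by 1.37 ± 0.38 (adjusted p = 0.0139, limma), CA exceeded NEC by 1.81 (adjusted p = 0.0326), and LD against CA was -0.43 (adjusted p = 0.495). Adding plate as a term, the difference to NEC was 1.24 and missed the threshold (adjusted p = 0.0734), and it did so without LD replicate 2 (1.13, adjusted p = 0.0607) or NEC replicate 2 (1.20, adjusted p = 0.0553) as well. The other measured interferon-induced gene, IFIT1, which binds viral RNA, was at -1.52, -1.49 and -2.08 in NEC and at -0.90, -0.75 and -1.69 in LD, with overlap (0.58, adjusted p = 0.293).

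Among the falls, the genes of the fibrinogen molecule stood together. Fibrinogen is built from chains encoded by FGA, FGB and FGG, neighbouring genes on chromosome 4, and is cleaved to fibrin in clotting. FGA lay at 5.17, 5.98 and 6.12 in NEC and at 4.44, 4.36 and 3.84 in LD, a fall by 1.55 (SE 0.26, 2.92-fold lower, adjusted p = 8.67e-04, limma). FGB lay at 5.74, 6.52 and 6.42 in NEC and at 5.05, 4.96 and 4.47 in LD, and fell by 1.40 (SE 0.22, adjusted p = 7.36e-04, limma). FGG lay at 6.19, 7.16 and 7.09 in NEC and at 5.52, 5.49 and 4.97 in LD, and fell by 1.48 (SE 0.26, adjusted p = 0.00112, limma). In all 3 genes the groups did not overlap, yet the NEC sample of plate 1 was closest to LD, and with plate as a term the differences were -0.98, -0.94 and -0.90 (adjusted p = 0.00239, 0.0029 and 0.00283). Of 5 tested genes of coagulation 3 fell and 0 rose. When plate was a term, clotting factor F5 fell too (-0.43, adjusted p = 0.0248), and the coagulation inhibitor TFPI2 was higher (0.57, adjusted p = 0.00333). Over all plates neither was called, with F5 at -0.25 (adjusted p = 0.142, limma) and TFPI2 at -0.04 (adjusted p = 0.928, limma).

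Albumin, ALB, the main carrier protein of plasma, lay at -3.27, -2.87 and -2.73 in NEC and at -4.27, -4.34 and -4.77 in LD, a fall by 1.50 (SE 0.24, 2.83-fold lower, adjusted p = 7.36e-04, limma). The fall was 1.08 in size with plate as a term, where the call held (adjusted p = 0.00596). Hemopexin, HPX, which binds heme, had the largest fall among the called genes with all wells within the measured range, with -3.78, -2.88 and -2.58 in NEC and -5.30, -4.04 and -5.58 in LD. Its difference of -1.89 ± 0.51 (adjusted p = 0.0125, limma) was -0.89 with plate as a term (adjusted p = 0.129), and it lost its call without LD replicate 3 (-1.59, adjusted p = 0.06) or NEC replicate 3 (-1.65, adjusted p = 0.0521). SERPINA1, the elastase inhibitor antitrypsin, was at -1.86, -0.69 and -0.60 in NEC and at -2.27, -1.91 and -2.74 in LD. The NEC sample of plate 1 was close to the LD samples, and the fall by 1.26 (adjusted p = 0.0152, limma) was 0.45 in size within plate 1 (adjusted p = 0.305). SERPINA1 was not called either without LD replicate 3 (-1.04, adjusted p = 0.0724), NEC replicate 2 (-1.08, adjusted p = 0.0591) or NEC replicate 3 (-1.03, adjusted p = 0.0675). LBP, which binds lipopolysaccharide, fell by 1.43 (SE 0.31, adjusted p = 0.00391, limma). Over the group of plasma carriers and protease inhibitors, 4 of 9 tested genes fell and 2 rose (median -0.45), SPINK1 and SERPINE2 being the rises. When plate was a term both rises but only the fall of ALB stayed called.

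Complement is the plasma cascade that marks and lyses microbes. Of 7 tested genes 5 fell and 0 rose (median -0.38), and 4 fell with plate as a term. The terminal component C5 lay at 1.28, 1.22 and 1.15 in NEC and at 0.57, 0.57 and 0.22 in LD (-0.76 ± 0.16, adjusted p = 0.00324, limma), and was at -0.86 with plate as a term. The serine protease C1S (-0.53 ± 0.14), factor B, CFB (-0.38 ± 0.12), and the protease CFI (-0.37 ± 0.12) fell as well. CFB and CFI were not called with plate as a term (adjusted p = 0.104 and 0.136). Leaving out single replicates also ended calls here. CFB was called only without LD replicate 1, CFI only without LD replicate 1 or NEC replicate 1, and C1S was not called without LD replicate 3 (-0.42, adjusted p = 0.0576). CFHR2, a complement-related plasma protein that is not counted in this group, lay at -4.01, -3.45 and -4.04 in NEC and at -5.61, -5.39 and -5.58 in LD. Its difference of -1.69 ± 0.31 (3.23-fold lower, adjusted p = 0.00123, limma) was as large with plate as a term (-1.81).

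Upstream sequences are shown for the fibrinogen genes and ALB, which fell together, and for MMP7 and SPINK1, 2 genes that rose and whose differences kept their calls with plate as a term. They are the 250 bases before the most upstream transcript start listed by RefSeq (GRCh38.p14), read 5′ to 3′ on the gene's strand. The windows are chr4:73404037-73404286 for ALB (+ strand), chr4:154590743-154590992 for FGA (- strand), chr4:154562730-154562979 for FGB (+ strand), chr4:154612657-154612906 for FGG (- strand), chr11:102530748-102530997 for MMP7 (- strand) and chr5:147831672-147831921 for SPINK1 (- strand). Capitals mark matches, on either strand, to the letters GTTAAT of the liver factor HNF1, TTGCNNAA of C/EBP factors, or TGANTCA of AP-1, and no matches overlap in these windows.
ALB: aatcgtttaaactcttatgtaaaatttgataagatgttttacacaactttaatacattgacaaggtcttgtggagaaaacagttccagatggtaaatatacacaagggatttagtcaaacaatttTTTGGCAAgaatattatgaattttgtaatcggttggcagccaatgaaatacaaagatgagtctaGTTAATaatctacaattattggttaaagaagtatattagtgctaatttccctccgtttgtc
FGA: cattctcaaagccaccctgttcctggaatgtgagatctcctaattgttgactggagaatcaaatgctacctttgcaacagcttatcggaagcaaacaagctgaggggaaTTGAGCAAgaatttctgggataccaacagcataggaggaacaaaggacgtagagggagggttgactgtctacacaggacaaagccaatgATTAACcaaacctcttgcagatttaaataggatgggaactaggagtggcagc
FGB: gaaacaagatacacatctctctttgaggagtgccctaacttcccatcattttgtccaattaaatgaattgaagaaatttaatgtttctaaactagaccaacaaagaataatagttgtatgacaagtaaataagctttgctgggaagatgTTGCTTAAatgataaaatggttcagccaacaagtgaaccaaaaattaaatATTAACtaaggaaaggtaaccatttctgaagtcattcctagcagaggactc
FGG: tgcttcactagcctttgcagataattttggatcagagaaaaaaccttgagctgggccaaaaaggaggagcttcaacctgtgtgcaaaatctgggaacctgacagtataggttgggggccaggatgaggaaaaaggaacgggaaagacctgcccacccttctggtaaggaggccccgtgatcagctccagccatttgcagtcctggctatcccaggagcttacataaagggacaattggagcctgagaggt
MMP7: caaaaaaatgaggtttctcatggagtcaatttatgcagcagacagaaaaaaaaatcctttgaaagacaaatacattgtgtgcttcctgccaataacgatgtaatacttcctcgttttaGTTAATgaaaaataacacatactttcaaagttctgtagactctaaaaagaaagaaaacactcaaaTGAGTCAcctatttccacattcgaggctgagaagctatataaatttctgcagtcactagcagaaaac
SPINK1: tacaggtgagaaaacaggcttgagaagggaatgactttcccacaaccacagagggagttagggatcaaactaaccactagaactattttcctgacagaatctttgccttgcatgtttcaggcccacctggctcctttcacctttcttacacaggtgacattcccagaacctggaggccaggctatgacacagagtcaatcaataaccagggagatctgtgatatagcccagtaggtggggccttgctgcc

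GTTAAT occurred once in the windows of ALB, FGA, FGB and MMP7, TTGCNNAA once in those of ALB, FGA and FGB, and TGANTCA once in that of MMP7, while FGG and SPINK1 held no match. RefSeq windows were found for 220 of the 282 tested genes, several for genes with several starts. They covered 44 of the 54 genes that fell, 28 of the 41 that rose and 148 of the 187 not called. The shares below count windows, so a gene with several starts counts more than once, and shares per gene were not taken. GTTAAT was present in 13 of 61 windows of genes that fell (21.3%), in 3 of 43 of genes that rose (6.98%), in 13 of 235 of genes not called (5.53%), and in 6.23% of all 35116 windows. TGANTCA was present in 8 of 43 windows of genes that rose (18.6%), in 7 of 61 of genes that fell (11.5%), in 21 of 235 of those not called (8.94%) and in 6.57% of all windows. TTGCNNAA was present in 14.8% of the windows of genes that fell, 6.98% of those that rose, 6.81% of those not called and 9.05% of all. These shares describe letters in a window, and binding was not measured.

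Alcohol dehydrogenases oxidise alcohols to aldehydes, and 3 of 5 tested members fell and 0 rose (median -0.72). ADH4 lay at -0.52, -0.51 and -0.59 in NEC and at -1.23, -1.28 and -1.73 in LD (-0.88 ± 0.15, adjusted p = 9.53e-04, limma). ADH6 (-0.69 ± 0.12) and ADH1C (-0.72 ± 0.19) fell by similar amounts, and all 3 kept their calls with plate as a term, although ADH1C lost its call without LD replicate 3 (-0.52, adjusted p = 0.0529). ADH1B and ADH1A were at -0.66 and -0.84, with adjusted p-values of 0.139 and 0.413. All 4 tested genes of the group of transporters and bile acid genes fell (median -0.72), and 3 with plate as a term. The member SLC17A4 was not called with plate as a term (adjusted p = 0.135). It also lost its call without LD replicate 2 or 3 or NEC replicate 2 or 3 (adjusted p from 0.0614 to 0.139). PDZK1 was not called without LD replicate 3 (adjusted p = 0.0576) or NEC replicate 1 (adjusted p = 0.0676). BAAT, which conjugates bile acids, lay at -0.93, -1.14 and -1.29 in NEC and at -1.83, -1.85 and -2.20 in LD (-0.84 ± 0.14, adjusted p = 7.36e-04, limma), and the organic anion transporter SLC17A3 fell by 1.07 (SE 0.16).

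Genes of cholesterol synthesis lay above 0. Of 8 tested genes of cholesterol synthesis and sterol handling 2 rose and 0 fell (median 0.27), against 14.5% higher over all tested genes. FDFT1, which makes squalene, lay at 3.18, 3.47 and 3.29 in NEC and at 3.83, 3.63 and 3.75 in LD (0.43 ± 0.10, adjusted p = 0.00798, limma). INSIG1, a sterol-dependent brake on the pathway, lay at 3.02, 3.44 and 3.43 in NEC and at 3.85, 3.61 and 3.68 in LD (0.42 ± 0.14, adjusted p = 0.031, limma). INSIG1 was not called without LD replicate 1 (0.35, adjusted p = 0.102), LD replicate 3 (0.43, adjusted p = 0.0692) or NEC replicate 1 (0.28, adjusted p = 0.122). In the model with plate, 6 of the 8 genes were called, all higher, with IDI1, which isomerises isoprenoid precursors, at 0.60 (adjusted p = 0.00239). In FASN, the fatty acid synthase, LD replicate 1 lay at -3.11 while the other LD samples were at 3.36 and 3.49. NEC lay at 3.38, 3.50 and 3.50, so that the difference of -2.22 in FASN (adjusted p = 0.18, limma) rests on a single LD well.

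Regulators of development and of the daily clock included 3 falls among 9 tested genes, against 19.1% lower over all tested genes. HES1, a transcriptional repressor downstream of Notch, lay at 0.38, 1.02 and 0.97 in NEC and at -0.53, -0.55 and -0.61 in LD, with very little spread (-1.35 ± 0.22, 2.56-fold lower, adjusted p = 8.16e-04, limma). It was at -0.87 with plate as a term and kept its call. WNT4, a secreted Wnt ligand, fell by 0.79 (SE 0.13). NR1D1, the clock repressor REV-ERB alpha, lay at -4.20, -3.62 and -3.93 in NEC and at -5.49, -4.36 and -4.92 in LD (2.01-fold lower, adjusted p = 0.0294, limma), and lost its call with plate as a term (-0.73, adjusted p = 0.188) and without LD replicate 1 (-0.72, adjusted p = 0.115), LD replicate 3 (adjusted p = 0.0754), NEC replicate 2 (adjusted p = 0.105) or NEC replicate 3 (adjusted p = 0.0675). Across the 9 tested genes of this group 1 rose, the zinc finger gene ZNF165 (0.70 ± 0.17, adjusted p = 0.06 with plate as a term), and the median was -0.05, equal to that of all genes.

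Receptors, hormones and metal-handling genes completed the large falls. ADRA2A, an adrenergic receptor, lay at -3.93, -2.81 and -2.91 in NEC and at -4.49, -4.82 and -4.69 in LD (-1.45 ± 0.37, adjusted p = 0.0099, limma), and INSL4, an insulin-like hormone of the placenta, at 2.67, 3.72 and 3.61 in NEC and at 2.35, 2.16 and 2.01 in LD (-1.16 ± 0.31, adjusted p = 0.0123, limma). In both, NEC on plate 1 was about 1 unit below the other NEC samples, and with plate as a term the differences were -0.95 (adjusted p = 0.0998) and -0.45 (adjusted p = 0.0544). INSL4 was at -0.97 without NEC replicate 2 (adjusted p = 0.0533). SLC39A5, a zinc importer, fell by 1.17 (SE 0.32) and was not called with plate as a term either (adjusted p = 0.142), nor without LD replicate 2 (-0.91), NEC replicate 2 (-1.07) or NEC replicate 3 (-0.94). MT2A, a metallothionein that binds zinc and copper, was detected late. All 3 LD wells had exported CTs above 35 (36.12, 35.55 and 35.47), which the authors had set to 35, so LD gives an upper bound for MT2A. NEC lay at -9.02, -8.05 and -8.24, and the difference of -1.67 ± 0.59 (adjusted p = 0.0485, limma) was -2.38 with the exported values. MT2A was not called with plate as a term (adjusted p = 0.368), and of the 6 samples only NEC replicate 1 could be left out with the call kept (adjusted p from 0.0833 to 0.129 without any other).

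In the groups for stress responses the shares called are read against 14.5% higher and 19.1% lower over all genes. None of 3 integrated stress response genes was called, and the stress factor DDIT3 was at 0.01 (adjusted p = 0.978). Of 4 targets of p53 only FAS, a death receptor, rose (0.51 ± 0.18, adjusted p = 0.0493), with a rise of 0.83 when plate was a term (adjusted p = 0.00239). Over all plates the call of FAS held only when NEC replicate 2 was the sample left out, with adjusted p-values of 0.0576 to 0.2 without any other. Of 8 genes of the NF-kB pathway and chemokines, none was called higher and only CFB lower. NFKBIZ of this group narrowly missed the threshold (0.55, adjusted p = 0.0512, limma). With plate as a term NFKBIZ was called higher (0.81, adjusted p = 0.021) and CFB was not called (adjusted p = 0.104). CCL20, a chemokine, lay at -5.08 in NEC on plate 1 and at -2.61 and -2.72 on plates 5 and 6, against -4.59, -4.69 and -4.10 in LD (-0.99, adjusted p = 0.22). LD was thus above NEC on plate 1 and below it on the other plates. Of 7 EGFR ligand and MAPK response genes EMP1 alone was called, while 3 were called higher and 0 lower with plate as a term. In the model with plate the phosphatase DUSP6, a MAPK target, was higher by 0.84 (adjusted p = 0.00518), whereas over all plates it was at 0.05 (adjusted p = 0.93), since NEC on plate 1 lay at -1.05 and on plates 5 and 6 at 0.47 and 0.20. In glycolysis, ALDOC (0.52 ± 0.15) and PGK1 (0.50 ± 0.14) rose among 7 tested genes, and 0 fell. ALDOC was not called without LD replicate 2 (0.43, adjusted p = 0.0754) or NEC replicate 1 (0.43, adjusted p = 0.0656), and PGK1 not without LD replicate 2 (0.41, adjusted p = 0.0649).

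**Figure D2:**
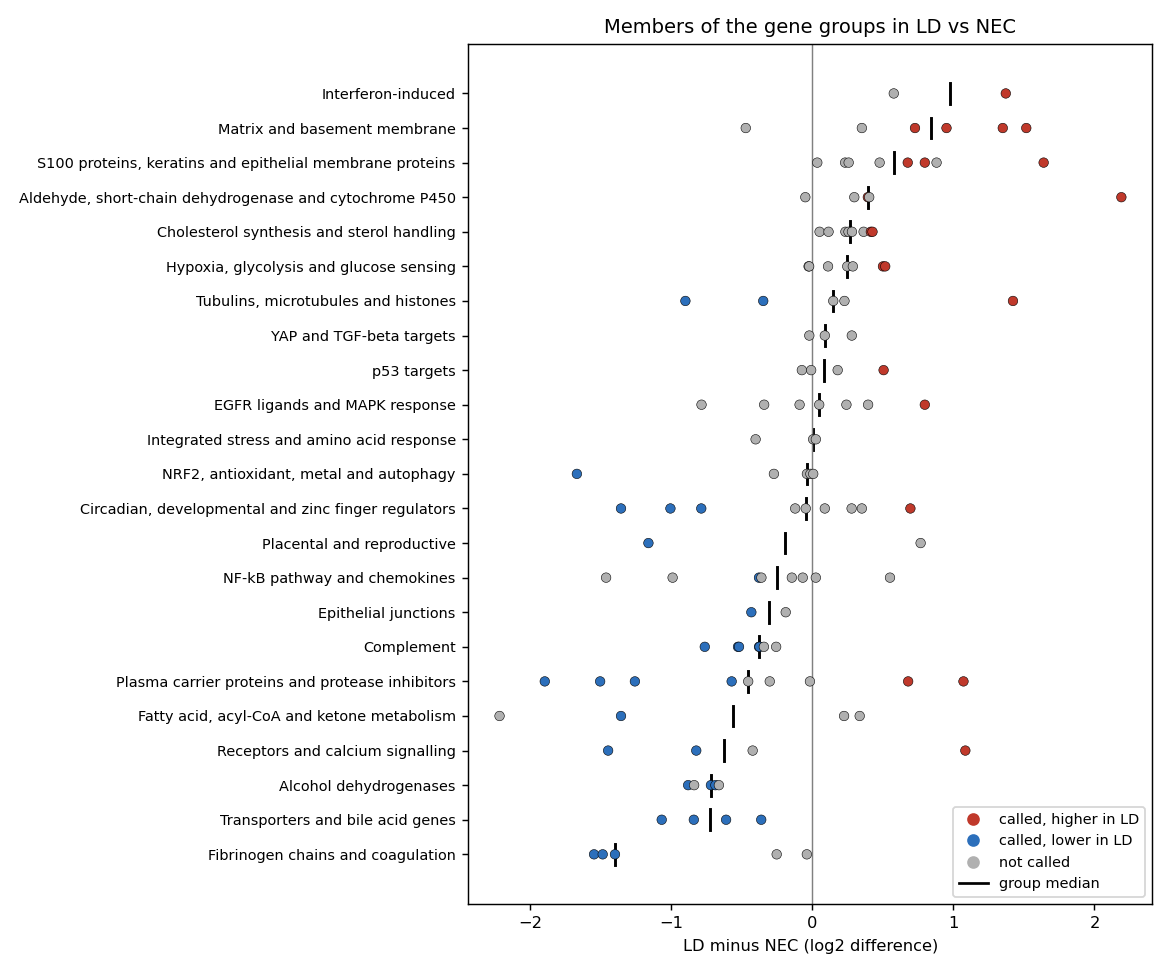
Difference between LD and NEC (log2 scale) for the members of each gene group with at least 2 tested genes, sorted by the group median (black bar). Red and blue points are genes called higher or lower in LD and grey points genes not called. Fibrinogen and coagulation genes have the lowest median (-1.40), and the groups with the highest medians are interferon-induced genes (0.97, 2 genes) and matrix and basement membrane (0.84, 6 genes).

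Of the other falls, several were in membrane transport and epithelial surface genes. CACNA1D, a subunit of a voltage-gated calcium channel, lay at 0.11, 0.31 and 0.47 in NEC and at -0.48, -0.54 and -0.96 in LD (-0.95 ± 0.15, adjusted p = 7.36e-04, limma). SLC23A1, a vitamin C transporter, fell by 0.70 (SE 0.13), and both kept their calls with plate as a term. The tight junction protein CLDN2 lay at 4.31, 4.24 and 4.14 in NEC and at 3.87, 3.86 and 3.66 in LD (-0.43 ± 0.10, adjusted p = 0.00685, limma). TPPP3, a tubulin-associated protein and 1 of 2 measured markers of ciliated epithelium, fell by 0.90 (SE 0.19), while the other marker, CFAP53, was at -0.72 (adjusted p = 0.396). Smaller rises included CD9, a tetraspanin (0.63 ± 0.12), RAB3B, a GTPase of secretory vesicles (0.69 ± 0.10), ANXA10, an annexin (0.73 ± 0.16), and CLEC2B, a lectin-like receptor ligand (0.56 ± 0.12), all 4 called with plate as a term too.

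**Figure D3:**
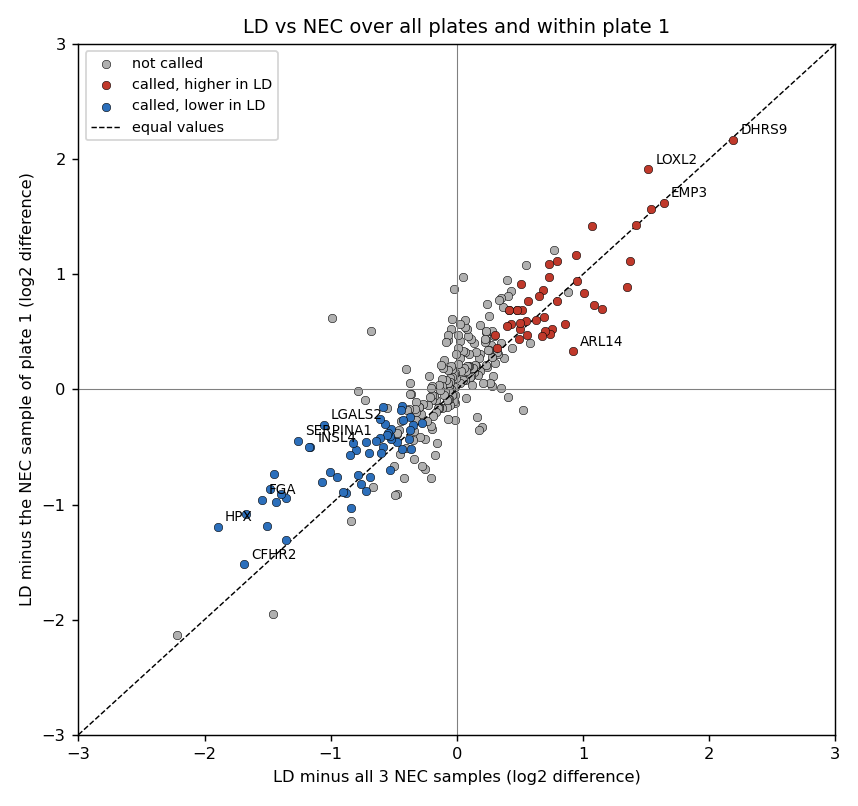
Difference between LD and NEC on the log2 scale for the 282 tested genes, over all NEC samples (horizontal axis) and against the NEC sample of plate 1 alone (vertical axis), with the line of equal values. Most genes called lower in LD (blue) lie above the line, with a median of -0.72 over all plates and -0.52 within plate 1, whereas genes called higher (red) have medians of 0.73 and 0.70.

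The flow alone was set beside these values through CA. CA against NEC gave 3 rises (1.06%) and 0 falls among 282 genes, and 46 genes at an unadjusted p under 0.05 (16.3%, limma). In the model with plate it gave 8 rises (2.84%) and 2 falls (0.709%). The rises over all plates included EMP3 (1.03, adjusted p = 1.69e-05) and IFI6 (1.81). LD against CA, the step in dose at equal flow, gave 12 rises (4.26%) and 21 falls (7.45%), with plate as a term 11 (3.9%) and 6 (2.13%), and no call against the CA sample of plate 1, where the CA arm is a single sample whose spread is assumed to equal that of the other groups. The comparisons share samples and add up, so their values are given side by side only. For EMP3 the CA samples lay at 1.17, 1.23 and 1.23, between NEC and LD, and the step from CA to LD was 0.61 (adjusted p = 0.00561). For DHRS9, CA against NEC was 0.90 (adjusted p = 0.0545) and LD against CA was 1.29 (adjusted p = 0.00588), with adjusted p-values of 0.0491 and 0.042 when plate was a term. For FGA the values were -0.64 (adjusted p = 0.247) and -0.91 (adjusted p = 0.0461), but with plate as a term the first was called (adjusted p = 0.0387) and the second was -0.34 and not called (adjusted p = 0.234). For ADH4 they were -0.63 (adjusted p = 0.0545) and -0.25 (adjusted p = 0.311). For INSL4 they were -0.09 and -1.07 (adjusted p = 0.0461), the latter being -0.37 with plate as a term (adjusted p = 0.175). INSL4 in CA lay at 2.49, 3.77 and 3.48, and overlapped NEC.

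**Figure D4:**
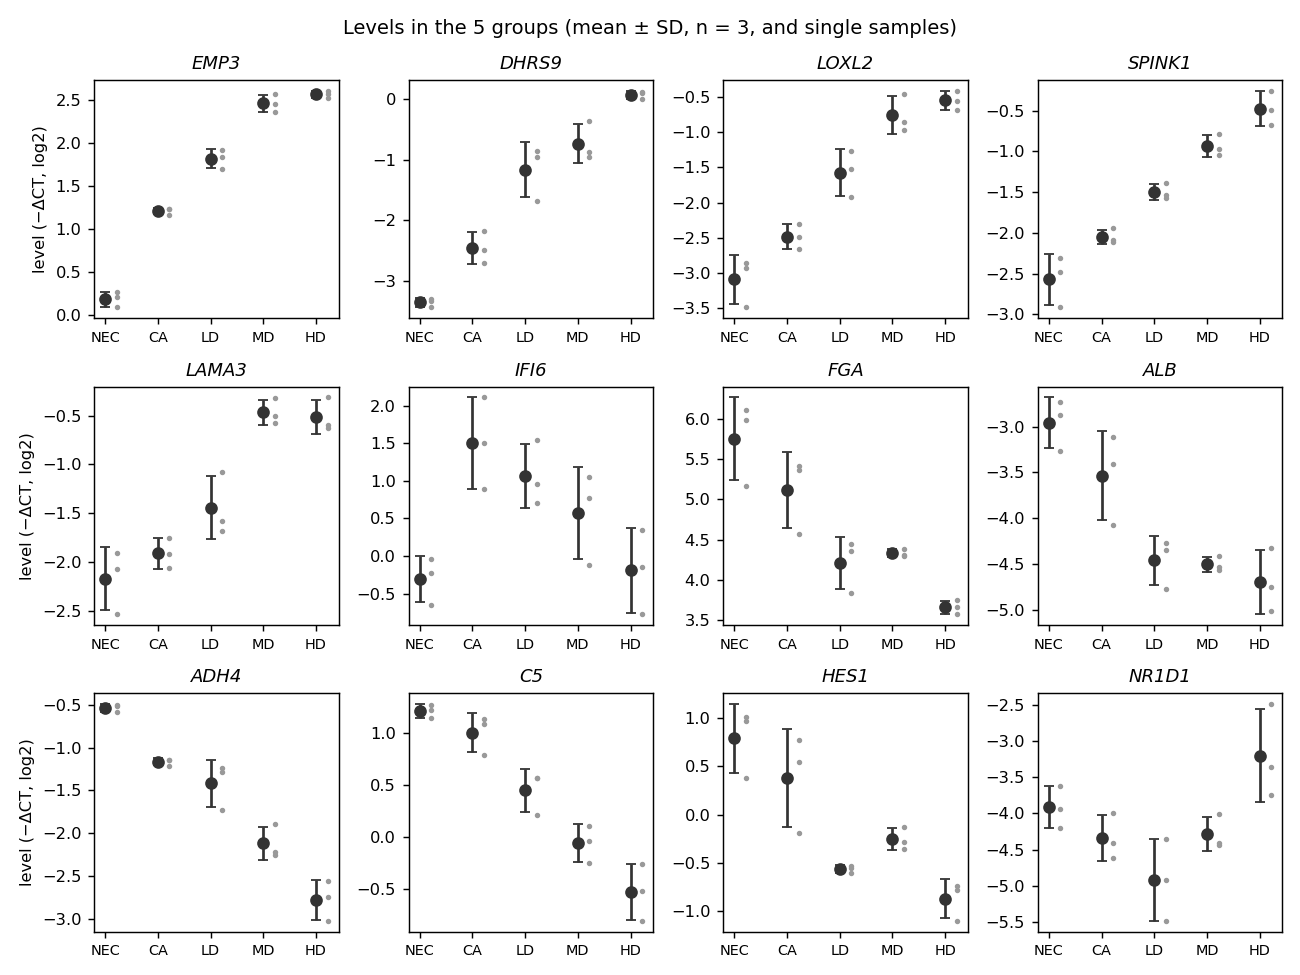
Levels (negative ΔCT, log2 scale) of 12 genes in NEC, CA, LD, MD (41.1 ppm) and HD (81.7 ppm), as mean ± SD of 3 samples (black) with the single samples (grey). The means of EMP3, LOXL2 and SPINK1 increase in the order NEC, CA, LD, MD, HD, the mean of IFI6 is highest in CA, and that of NR1D1 is lowest in LD. MD and HD come from plates 5 and 6 only.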

How the data were processed

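Customised PCR arrays were run on reverse-transcribed RNA. The first matrix deposited by the authors holds CT values, a score in PCR cycles, with wells without a product marked nd. The second, deposited by the authors on a log2 scale, holds the CT minus the mean CT of GPN1 and TMEM184C. By testing all pairs, exactly 1 pair was found to link the matrices (largest difference 3.96e-09 cycles). The authors set 10 wells above 35 to 35, and filled 25 nd wells, which were treated as missing here. A further deposited table holds the authors' fold changes and was not used. A PCR array has no read depth, so precision is limited by replicate number and, in late wells, by the 35-cycle limit.

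Negative ΔCT values of all 15 samples were fitted with 1 mean per group (limma 3.58.1, R 4.3.3). Tests were two-sided, with Benjamini-Hochberg adjustment over the 282 genes tested, and all adjusted p-values are from limma. The fit was also run on simulated independent values without plate differences, which cannot bear on the plate shared by the LD samples. AMHR2, IL1RL1, the second ACTA2 assay and the normalisation genes were not tested. In EGR2 LD had 2 samples, and in ANG and PSG4 NEC had 2. Some genes are not reported here. P-values measure a spread between cultures that is pooled over all groups. LD, MD and HD each came from a single plate, so differences between plates enter this spread only through CA and NEC. Plate was added as a term, whose offset for plate 1 rests on CA and NEC. Alternatives covered normalisation, nd and late wells, filters, samples fitted, plate, moderation and leaving out each replicate.

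Genes named were the 15 largest rises and falls and up to 4 genes of each list with the smallest p-values. Further genes were chosen after their values were seen. Members and lists were chosen with earlier results of these data known. Sequences are from RefSeq (GRCh38.p14). Figures were drawn with matplotlib 3.10.9.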

Additional observations from a re-analysis of the deposited data

How the results depend on the processing

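No paired analysis was possible because, for LD, all samples came from plate 1 and the labels give all NEC and CA samples the same replicate number. CA and NEC pair by plate, and for them the plate block is that pairing (10 calls against 3). For LD against NEC, 95 genes were called (41 higher, 54 lower). Without a normalisation gene 55 were called (25 higher, 30 lower), at an adjusted p under 0.01 49 (26 and 23). Falls numbered 35 with GPN1 alone, 33 with the plate block and 24 within plate 1. With the mean over all assays as normaliser the split was 58 higher and 51 lower, and 91 of the 95 genes remained called. Leaving out each replicate gave 60 to 86 calls (31 to 37 rises, 28 to 54 falls); falls were 28 without LD replicate 3, 29 without NEC replicate 2 and 35 without NEC replicate 3. No gene chosen by the naming rule given above changed sign in LD against NEC where the main or the alternative value was called. Further genes, chosen after their values were seen, were not part of this check. TFPI2, named outside that rule, changed from -0.04 (adjusted p = 0.928, limma) to a called 0.57 with plate as a term. The other alternatives gave 65 to 109 calls, among them, chosen after seeing the data, 95 with late wells at their exported CT and 93 (34 higher, 59 lower) with only the NEC samples of plates 5 and 6. MT2A could not be fitted with wells at 35 as missing.

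CA against NEC (3 calls) gave 1 without a normalisation gene and at an adjusted p under 0.01, 6 with only genes detected in every well or only LD, CA and NEC samples, 9 with only both groups, 10 with the plate block, 7 with plate as a random block, and 1 to 2 leaving out each replicate. LD against CA (33 calls) gave 2 with GPN1 alone and at an adjusted p under 0.01, 11 without a normalisation gene, 5 with only both groups or no moderation, 7 with only LD, CA and NEC samples, 17 with the plate block, 6 with the random block, 0 within plate 1, and 2 to 26 leaving out each replicate (2 without LD replicate 3, CA replicate 2 or CA replicate 3). The cause was not tested. Plate and dose cannot be told apart among exposed samples. MT2A is a bound.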

Other observations

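A pair of genes, AMHR2 and IL1RL1, had product in a single LD sample and in no NEC sample and could not be tested. AMHR2, the receptor of anti-Müllerian hormone, lay at -9.57 in LD replicate 1 and gave no product in the other LD, NEC and CA wells, while MD lay at -8.60, -8.18 and -8.62 and HD at -5.94, -7.21 and -6.27. IL1RL1, the receptor of IL33, lay at -6.88 in LD replicate 1 and at -6.65 in CA on plate 6, at -6.66 and -4.65 in the MD samples with product, and at -3.21, -2.91 and -2.86 in HD. TUBA4A, a tubulin, was lowest in LD, at 1.09, 0.67 and 0.85, against 1.18, 1.36 and 1.12 in NEC and 2.02, 2.22 and 2.18 in HD, without overlap between LD and either of these groups. Its fall from NEC to LD (-0.35 ± 0.13, adjusted p = 0.0486, limma) was not called with plate as a term (adjusted p = 0.139), and of the 6 samples only LD replicate 1 could be left out with the call kept.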
